A study of Homo sapiens with 4 samples.

Results

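The genes described here are the human HOX cluster genes, 39 of the 61806 genes in the count table, chosen by name as HOXA, HOXB, HOXC or HOXD followed by a number. They fall into 11 HOXA, 10 HOXB, 9 HOXC and 9 HOXD genes. Each encodes a transcription factor with a homeodomain, the part that binds DNA, and the 4 clusters arose by duplication, so that a number names a paralog group, 1 to 13, shared between clusters. Within a cluster, low numbers lie at one end and are used in the anterior body, high numbers lie at the other end and are used posteriorly, and cells keep the HOX genes of the body region that they came from. Polycomb complexes keep unused HOX genes silent, MLL and trithorax complexes keep used ones active, and HOX proteins bind DNA together with PBX and MEIS cofactors. Paralog groups 1 to 3 are called anterior here, groups 4 to 8 central and groups 9 to 13 posterior.

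Poly(A) RNA was sequenced from 2 human cell lines of wild-type genotype by the labels, the melanoma line MDA-MB-435 and the breast cancer line MDA-MB-231. Each was sequenced as a control and after 6 h with 10 µM CPYPP, an inhibitor of DOCK proteins. The vehicle of the controls is not stated, there was 1 library per condition, and each line is 1 established culture. The values are raw reads counted per gene, with totals from 17196385 to 22663954 per library, and 3 counts, the limit that a count of 0 allows, come to between 0.132 and 0.174 CPM. Where a pair of values is given, the first is of the control and the second of the CPYPP library. A lower value can mean that fewer cells held the mRNA or that each cell held less, which bulk RNA cannot tell apart. The libraries carried the markers of their labels in part. SOX10, a neural crest factor of melanocytes, had 3031 and 707 counts in MDA-MB-435 and 0 and 1 in the other line, and the epithelial adhesion genes CDH1 (0 and 0, against 837 and 464 in MDA-MB-231) and EPCAM (2 and 0, against 387 and 287) stood the other way round. S100B, DCT and GPR143 were likewise higher in MDA-MB-435, S100B with 1055 and 761 counts against 0 and 0. KRT7, KRT8 and KRT19 were higher in MDA-MB-231, KRT19 with 3953 and 2225 counts against 4 and 0. Some other markers did not separate the lines this way. MITF had 1405 and 809 counts in MDA-MB-435 against 1585 and 690, and PMEL 13 and 4 against 34 and 29. Of the epithelial genes, KRT18 was abundant in both lines, and GATA3 had 187 and 83 counts in MDA-MB-435 against 242 and 88. KRT14 had 54 and 30 in MDA-MB-435 against 3 and 1, and ESR1 24 and 20 against 2 and 9. Of the pigment genes, TYR, TYRP1, MLANA and PMEL had at most 16 counts in each MDA-MB-435 library, unlike DCT and GPR143.

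The sequence before the start of 3 paralogs of group 4 is shown because 2 of them were the members with the lowest CPYPP to control ratios, HOXC4 in MDA-MB-231 and HOXD4 in MDA-MB-435, and HOXA4 is their counterpart in HOXA, of which no gene reached the limit for being on in MDA-MB-231. Each run is the 250 bases before the RefSeq start, 5′ to 3′ on the strand of the gene, from GRCh38.p14. Capitals mark CCAAT, a short element of many promoters, which on these strands reads ATTGG. HOXA4 is chr7:27130758-27131007 on the minus strand, HOXC4 is chr12:54016638-54016887 on the plus strand, and HOXD4 is chr2:176151300-176151549 on the plus strand.
HOXA4: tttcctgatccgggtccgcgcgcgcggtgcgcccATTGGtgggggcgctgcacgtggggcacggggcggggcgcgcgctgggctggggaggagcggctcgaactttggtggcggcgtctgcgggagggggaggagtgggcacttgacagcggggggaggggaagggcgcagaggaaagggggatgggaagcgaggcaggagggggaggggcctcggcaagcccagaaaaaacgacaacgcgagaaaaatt
HOXC4: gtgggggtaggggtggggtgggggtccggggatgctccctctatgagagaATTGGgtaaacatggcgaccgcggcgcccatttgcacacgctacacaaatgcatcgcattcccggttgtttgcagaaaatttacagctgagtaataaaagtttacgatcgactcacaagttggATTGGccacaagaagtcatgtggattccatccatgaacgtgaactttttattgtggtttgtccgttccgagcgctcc
HOXD4: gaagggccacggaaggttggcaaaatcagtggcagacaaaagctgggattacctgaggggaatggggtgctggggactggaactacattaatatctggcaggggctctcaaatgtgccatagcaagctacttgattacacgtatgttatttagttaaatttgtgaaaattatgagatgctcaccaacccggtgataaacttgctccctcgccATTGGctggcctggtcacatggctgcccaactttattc
The HOXC4 window is also that of HOXC5, since RefSeq gives both genes this start. The 3 windows hold 26, 14 and 4 CpG dinucleotides, for HOXA4, HOXC4 and HOXD4. They hold 1, 2 and 1 CCAAT elements, and neither TATAAA nor TGATNNAT, a site form bound by PBX with HOX proteins, nor GAANNTTC, the core of a heat shock element, was found in them on either strand. RefSeq windows were matched for 20 of the 39 members, 27 windows in all, of which HOXA3 has 7. Their median was 19 CpG, against 11 over 35116 windows of all genes. CCAAT was present in 18 of the 27 (66.7%, against 32.0% of all windows), TATAAA in 5 (18.5%, against 10.7%), TGATNNAT in 3 (11.1%, against 6.47%) and GAANNTTC in 1 (3.70%, against 5.78%). Matches of different motifs may overlap.

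At a limit of 1 TPM, MDA-MB-435 transcribed most of its HOX genes, and MDA-MB-231 a small and different set. At 1 FPKM fewer genes of each line passed, and in MDA-MB-435 these were not most, as given in the last section. Levels are given as TPM, counts divided by the exon length in the table and scaled to the same total in each library. The 39 members summed to 533 and 345 TPM in MDA-MB-435 and to 46.0 and 48.3 TPM in MDA-MB-231. In counts, 644 and 466 reads of MDA-MB-231 lay on members, 0.00288% of its control library (95% Clopper-Pearson interval 0.00266% to 0.00311%) and 0.00271% of its CPYPP library (0.00247% to 0.00297%). In MDA-MB-435 they were 7543 and 3991 reads, 0.0333% (0.0325% to 0.0340%) and 0.0205% (0.0198% to 0.0211%). These intervals, and all others here, cover counting error only.

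A member was called on in a line at 1 TPM or more in both of its libraries, off at 3 counts or fewer in both, and low otherwise. In MDA-MB-231, 5 members were on, 8 low and 26 off, of which 21 had 0 counts in both libraries. In MDA-MB-435, 25 were on, 2 low and 12 off. Only HOXB7 and HOXB9 were on in both lines, and 9 members were off in both, namely HOXA7, HOXA9, HOXA10, HOXA11, HOXB1, HOXC12, HOXD10, HOXD11 and HOXD12. In MDA-MB-435 the HOXA genes that were on lay at the anterior end of their cluster, HOXA2 to HOXA5 among them, 9 of 10 HOXB genes and 8 of 9 HOXC genes were on, and the HOXD genes that were on were HOXD8, HOXD9 and HOXD13. In MDA-MB-231 no HOXA or HOXC gene was on, and the 3 HOXD genes that were on were HOXD1, HOXD3 and HOXD4.

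**Figure D1:**
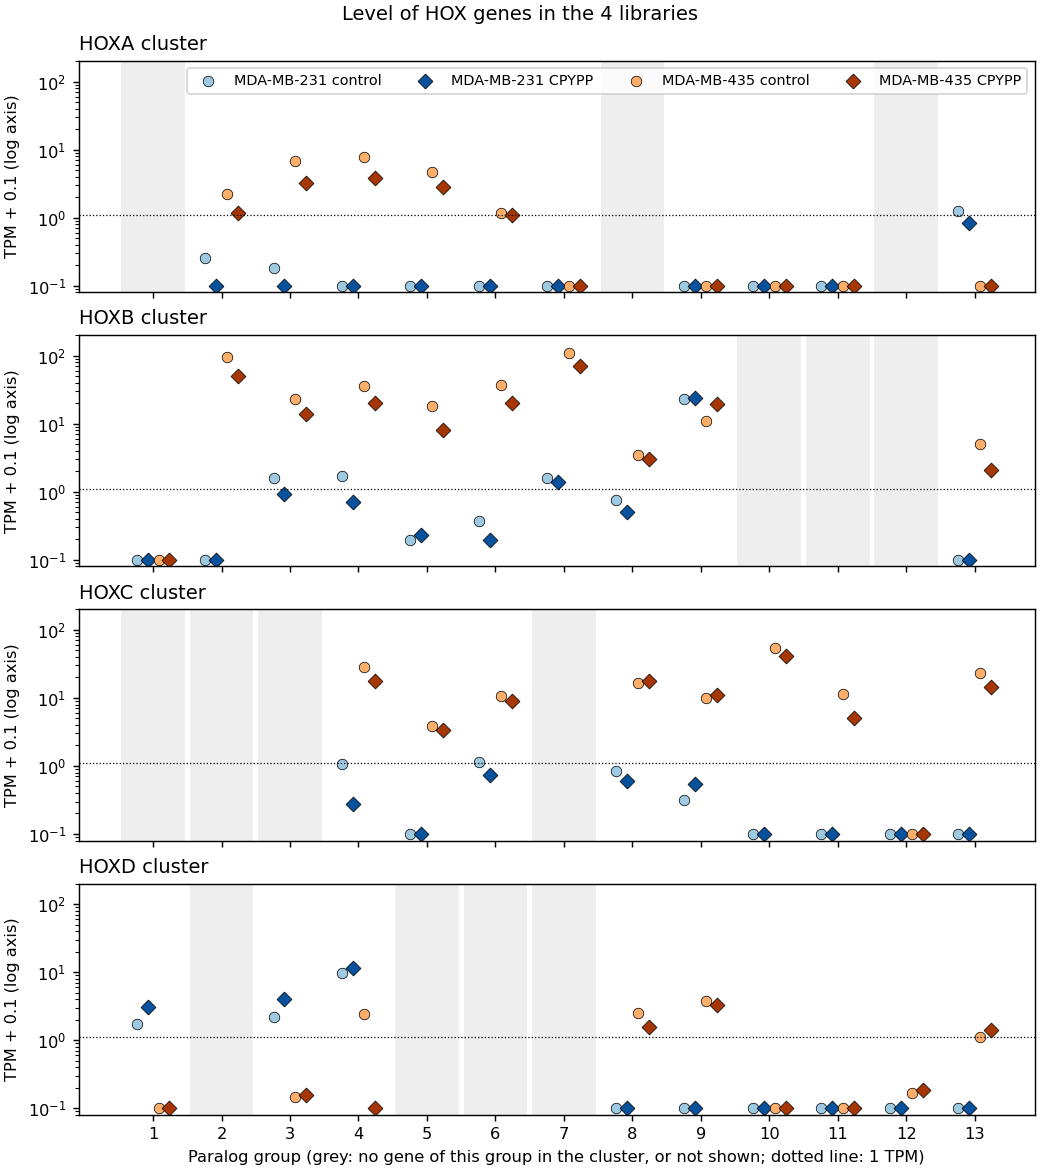
Level of the HOX genes named here, as TPM + 0.1 on a log axis, against its paralog group, 1 panel per cluster and 1 point per library. The orange MDA-MB-435 points lie above 1 TPM from HOXB2 to HOXB9 and over most of HOXC, and both blue MDA-MB-231 points do so at HOXB7, HOXB9, HOXD1, HOXD3 and HOXD4.

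The HOXB cluster held the largest share of the HOX mRNA in both lines, through different genes. Its summed TPM was 63.7% and 60.2% of that of all members in MDA-MB-435, and 61.6% and 56.9% in MDA-MB-231. In MDA-MB-231, HOXB9 alone made up 49.4% and 49.9% of the HOX TPM, and the rest of HOXB 12.2% and 7.0%. The second cluster was HOXC in MDA-MB-435 (29.8% and 34.2%) and HOXD in MDA-MB-231 (29.01% and 37.7%). HOXA made up 4.76% and 3.85% in MDA-MB-435 and 3.02% and 1.71% in MDA-MB-231.

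**Figure D2:**
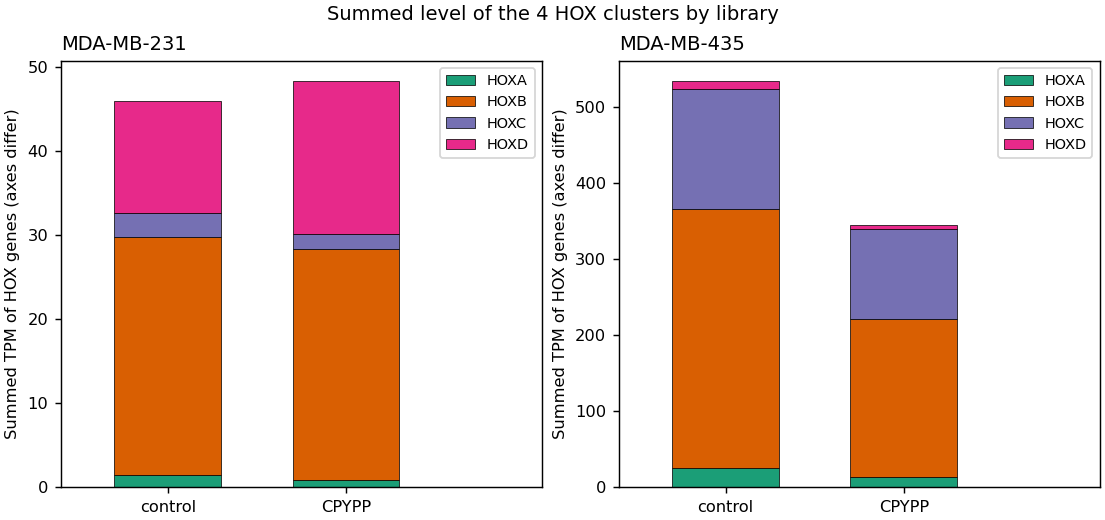
Summed TPM of the HOX genes of each cluster, stacked, in the 2 libraries of MDA-MB-231 (left panel) and of MDA-MB-435 (right panel), on linear axes of different height. The total is 46.0 and 48.3 TPM on the left and 533 and 345 TPM on the right, and HOXB is the largest block in each bar.

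The difference between the lines was fitted with edgeR's quasi-likelihood test over the 4 libraries with treatment as a block, where the control and CPYPP libraries are the only repeat of a line and 1 degree of freedom remains. Of 29 members tested, 24 were higher in MDA-MB-435 and 5 in MDA-MB-231 at an adjusted p under 0.05. Over all 16801 genes tested, 30.5% were higher in MDA-MB-435 and 32.4% higher in MDA-MB-231. The median log2 difference of the members, MDA-MB-435 minus MDA-MB-231, was 5.98, against -0.01 over all genes tested. DESeq2 gave 26 members in place of 29, after the same filter. That filter kept a gene with enough counts in either line, such as HOXB2, which had 0 counts in both MDA-MB-231 libraries. A member silent in a line could thus enter only through the line where it was high. The number of members that differed and their median follow in part from this filter.

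HOXB genes were the most abundant members in MDA-MB-435. HOXB7, a central factor that is also on in MDA-MB-231, had the highest level there, 111 and 70.2 TPM, against 1.52 and 1.30 TPM in MDA-MB-231. HOXB2, which patterns the hindbrain, came next at 95 and 50.7 TPM, from 1343 and 590 counts, and had 0 counts in both MDA-MB-231 libraries. Against a floor of 3 counts over those libraries it was at least 604-fold higher in MDA-MB-435. HOXC10, a posterior factor of lumbar segments and hindlimb, followed at 54.2 and 40.8 TPM and at least 374-fold higher than in MDA-MB-231, where it too had 0 counts. HOXB6 (37.0 and 20.3 TPM) and HOXB4 (36.1 and 20.0 TPM) lay next to each other in this order, which was not tested between genes. HOXC4 (28.6 and 17.5 TPM), HOXC13 (23.4 and 14.1 TPM) and HOXB3 (23.0 and 13.8 TPM) completed the members above 20 TPM in the control library. Among the posterior HOXC genes that had 0 counts in MDA-MB-231, HOXC13, a factor of hair and nail, was at least 148-fold higher in MDA-MB-435 and HOXC11 at least 91.5-fold.

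The 5 members that were higher in MDA-MB-231 were HOXB9, HOXA13, HOXD1, HOXD3 and HOXD4. HOXB9, a thoracic factor known also in the mammary gland, had 331 and 253 counts (22.7 and 24.1 TPM) in MDA-MB-231, against 162 and 240 counts (10.9 and 19.6 TPM) in the other line. The log2 difference, MDA-MB-435 minus MDA-MB-231, was -0.70 (SE 0.231, adjusted p = 0.0215), the smallest of the 29. HOXA13, a factor of the distal limb and urogenital tract, had 33 and 15 counts, against 0 in both MDA-MB-435 libraries, and was at least 17.1-fold higher. HOXD1 had 17 and 23 counts, against 0 in both MDA-MB-435 libraries, at least 14.2-fold higher. HOXD3 had 43 and 59 counts (2.06 and 3.93 TPM) against 1 and 1, and HOXD4 had 62 and 52 counts (9.68 and 11.3 TPM) against 15 and 0. Of the members that were on in MDA-MB-435 and not tested in MDA-MB-231, HOXB8 (9 and 4 counts), HOXB6 (4 and 1) and HOXC9 (2 and 3) had the most counts in MDA-MB-231, and the others had at most 2 in each library.

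Some HOX genes share exon bases with others in GENCODE release 29, so their counts rest on the rest of the gene or on how reads of both were assigned, and the strand setting of the counting is not stated. On the same strand, 80.5% of the exon bases of HOXD4, 62.2% of HOXD3, 59.9% of HOXC5 and 31.0% of HOXA4 are shared. On the other strand, 62.5% of HOXA7, 58.1% of HOXD1, 39.3% of HOXA6 and 31.1% of HOXA11 are shared. The antisense RNA HAGLR, which overlaps HOXD1 in part, had 466 and 427 counts in MDA-MB-231, against 3 and 6 in MDA-MB-435, so reads of HAGLR and of HOXD1 or HOXD3 may not be separable. Values of these genes are uncertain to that extent.

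After CPYPP, HOX mRNA was lower in MDA-MB-435 across most members. The summed HOX count was 0.682 times the control (interval 0.656 to 0.709), after scaling by TMM, which sets libraries on the genes that they share. Of 26 members with at least 10 counts in a library, 22 had a ratio under 1, as did 51.4% of all genes tested, and the median log2 ratio was -0.66, against -0.02 over all genes tested. The test within a line was an exact binomial test of the reads of both libraries, adjusted by Benjamini-Hochberg over all genes tested, and compares these libraries, not the conditions. At an adjusted p under 0.05 and a fold change over 2, the rule for a call, 4 of the 26 were lower and 0 higher, where 6.52% of all 16527 genes were called lower and 3.17% higher. At an assumed biological coefficient of variation of 0.2, 1 of these calls, HOXD4, was left, and at 0.4 there were 0. HOXD4 had 15 and 0 counts, so it reached 10 counts through the control library alone, and 80.5% of its exon bases are shared with other genes. That its call was left is therefore no sign of a firmer change. At an adjusted p under 0.05 with no minimum fold, 14 members were lower, where 23.2% of all genes were, and 1 was higher, where 27.6% of all genes were. The 12 melanocyte markers summed to 339 and 222 TPM in these libraries, with 3 at 3 counts or fewer in each, TRPM1 at 0. Of the 9 tested, only SOX10 was called lower (0.301, 0.277 to 0.327), and MITF (0.742, adjusted p = 6.27e-11) and RAB38 (0.594, adjusted p = 1.42e-06) were lower without passing the fold limit. The other 6, among them S100B (0.930), DCT (0.909) and GPR143 (1.09), did not pass the test, and the part of these markers in the HOX values was not tested.

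By position along the body axis, the median log2 ratio was -0.87 over 5 anterior members, -0.67 over 13 central members and -0.24 over 8 posterior members. An adjusted p under 0.05 was reached by 3, 7 and 4 of them in the lower direction, and by 23.2% of all genes tested. Whether the positions differ from this share was not tested. By cluster, the summed count was 0.537 times the control for HOXA (interval 0.443 to 0.650), 0.649 for HOXB (0.618 to 0.682), 0.771 for HOXC (0.721 to 0.825) and 0.752 for HOXD (0.542 to 1.04). The intervals of HOXB and HOXC do not overlap, and that of HOXD includes 1.

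**Figure D3:**
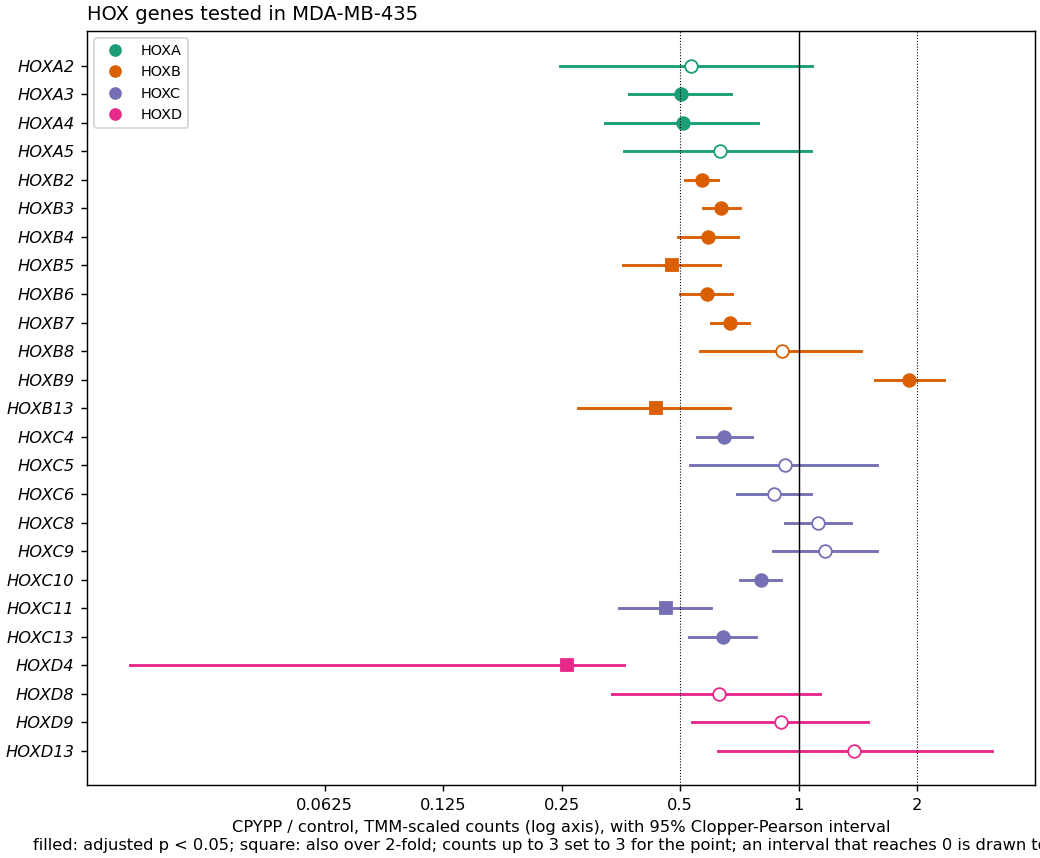
CPYPP to control ratio, on a log axis, of HOX genes tested in MDA-MB-435, with 95% Clopper-Pearson intervals for counting error. The 4 squares left of 0.5 are HOXB5, HOXB13, HOXC11 and HOXD4, and HOXB9 is the filled point right of 1, at 1.91.

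In HOXA, 2 members were lower with an adjusted p under 0.05, as were 23.2% of all genes tested. HOXA3, a factor of the pharyngeal arches, went from 167 counts to 65 (ratio 0.502, interval 0.371 to 0.672, adjusted p = 4.58e-06), and HOXA4 from 76 to 30 (0.509, 0.322 to 0.786, adjusted p = 0.00419). HOXA2 (29 and 12 counts, 0.534, 0.248 to 1.08) and HOXA5 (45 and 22, 0.630, 0.361 to 1.07) did not pass the test, with adjusted p of 0.137 and 0.140. HOXA6 had 8 and 6 counts and was not tested.

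In HOXB, 7 of 9 tested members were lower with an adjusted p under 0.05, against 23.2% of all genes tested. HOXB5, which acts in gut and lung development, fell the furthest among HOXB members with over 100 control counts, from 192 to 71 counts (0.477, 0.358 to 0.629, adjusted p = 1.58e-07). HOXB13, the prostate and hindgut member that lies apart from the rest of its cluster, fell from 86 to 29 (0.435, 0.275 to 0.669, adjusted p = 0.000157). Both were called. The abundant members came close to each other. HOXB2 fell from 1343 to 590 (0.566, 0.513 to 0.625, adjusted p = 3.02e-31), HOXB6 from 555 to 251 (0.583, 0.50 to 0.678) and HOXB4 from 416 to 190 (0.589, 0.493 to 0.701). HOXB3 fell from 983 to 485 (0.636, 0.569 to 0.710) and HOXB7 from 975 to 506 (0.669, 0.60 to 0.746). The intervals of neighbours in this order overlap, and none of these 5 passed the fold limit. HOXB8 did not pass the test, at 47 and 33 counts (0.905, 0.562 to 1.44).

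HOXB9 stood apart from its cluster. It had 162 counts in the control and 240 in the CPYPP library, a ratio of 1.91 (1.56 to 2.35, adjusted p = 7.03e-10), just inside the fold limit, and was the only member in either line with a higher value at that p besides HOXD3 in MDA-MB-231. Its interval overlaps that of no other tested HOXB member in MDA-MB-435. Without HOXB9, a choice made after seeing the data, the HOXB sum was 0.604 times the control (0.574 to 0.636). In MDA-MB-231 the ratio of HOXB9 was 1.04 (0.882 to 1.23), and the intervals of both lines do not overlap. Whether the response of HOXB9 differs between the lines beyond counting error was not tested, since no culture was repeated.

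In HOXC, 4 of 8 tested members were lower with an adjusted p under 0.05, against 23.2% of all genes tested. HOXC11 fell from 216 to 77 counts (0.460, 0.350 to 0.599, adjusted p = 4.74e-09) and was called. HOXC4 fell from 456 to 229 (0.648, 0.550 to 0.761), HOXC13 from 317 to 158 (0.643, 0.528 to 0.780) and HOXC10 from 740 to 459 (0.800, 0.710 to 0.900). The middle of the cluster did not pass the test. HOXC8 went from 232 to 201 counts (1.12, 0.920 to 1.36) and HOXC9 from 94 to 85 (1.17, 0.859 to 1.58), and HOXC6, at 214 and 144, had a ratio of 0.868 (0.697 to 1.08). HOXC5 had 35 and 25 counts (0.921, 0.528 to 1.58). HOXC11 and HOXC8, both in this cluster, thus had intervals that do not overlap.

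In HOXD, HOXD4 had 15 counts in the control and 0 in the CPYPP library. With the 0 set to the floor of 3, its ratio is 0.258 (interval for the reads 0 to 0.360, adjusted p = 0.000799), and it was called. HOXD8 had 37 and 18 counts (0.627, 0.336 to 1.13), HOXD9 40 and 28 (0.903, 0.536 to 1.5) and HOXD13 14 and 15 (1.38, 0.622 to 3.09), and none of these passed the test.

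In MDA-MB-231 the summed HOX count was not lower, at 0.988 times the control (interval 0.875 to 1.11), and the clusters differed. The HOXD sum was 1.5 times the control (1.16 to 1.93) and the HOXC sum 0.552 times (0.306 to 0.958), while the intervals of HOXA (0.590, 0.307 to 1.09) and HOXB (0.925, 0.796 to 1.07) include 1. Without HOXB9, again chosen after seeing the data, HOXB was 0.561 times the control (0.386 to 0.804). Of 11 members tested, 1 was called lower and 0 higher, where 3.09% of all 16441 genes were called lower and 4.22% higher. With no minimum fold, 2 were lower, where 20.9% of all genes were, and 1 was higher, where 24.2% were. The median log2 ratio of the 11 was -0.55, against -0.01 over all genes tested, but it turned to 0.13 over the members with at least 10 counts in both libraries. A ratio under 1 was found for 7, and for 51.2% of all genes tested.

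**Figure D4:**
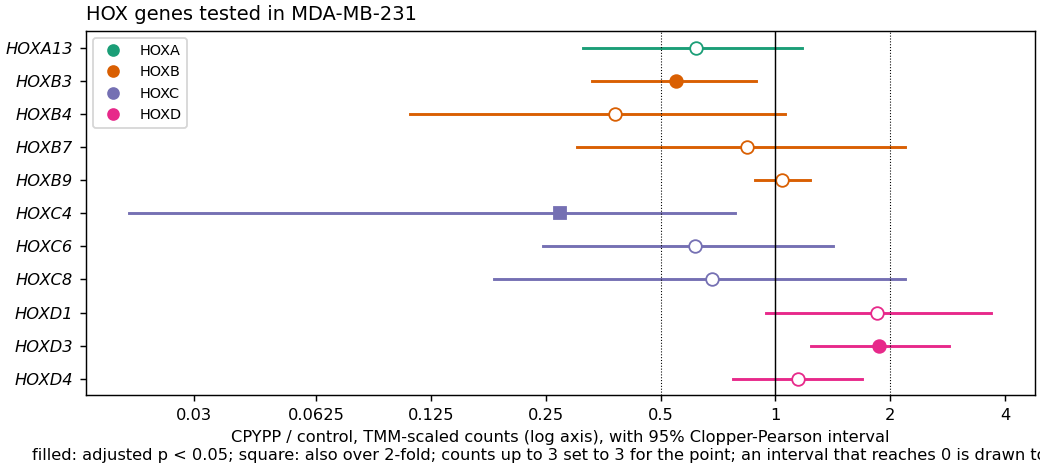
CPYPP to control ratio, on a log axis, of the 11 HOX genes tested in MDA-MB-231, with 95% Clopper-Pearson intervals for counting error. HOXC4 is the 1 square, the 3 HOXD genes lie right of 1, and the narrowest interval, of HOXB9, spans 1.

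The called member was HOXC4, with 15 counts in the control and 2 in the CPYPP library (ratio 0.273 with the 2 set to 3, interval for the reads 0.0202 to 0.783, adjusted p = 0.0292). This call was lost at an assumed biological coefficient of variation of 0.1 (adjusted p = 0.164). The fit over both lines gave 0.121, but from 1 residual degree of freedom and no repeated culture, so it does not measure variation between cultures. HOXC4 was not tested where 10 counts were required in both libraries. HOXB3 had 62 and 25 counts (0.550, 0.331 to 0.889, adjusted p = 0.0293). These 2 genes were lower at that p in MDA-MB-435 as well. HOXD3, which acts in the axial skeleton and is linked to cell adhesion, had 43 and 59 counts (1.87, 1.24 to 2.84, adjusted p = 0.00543). HOXD1 had 17 and 23 (1.85, 0.944 to 3.68) and HOXD4 62 and 52 (1.14, 0.776 to 1.68), neither of which passed the test, and HAGLR, which overlaps HOXD1, had a ratio of 1.25. HOXB4 had 18 and 5 counts (0.379, 0.110 to 1.06), HOXA13 33 and 15 (0.620, 0.313 to 1.17), HOXC6 20 and 9 (0.614, 0.246 to 1.41), HOXC8 10 and 5 (0.682, 0.183 to 2.19) and HOXB7 13 and 8 (0.840, 0.302 to 2.19). The intervals of these 5 genes span several-fold and include 1.

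Over both lines, edgeR's quasi-likelihood test with the line as a block found 2 of 29 members lower after CPYPP and 0 higher, where 2.85% of all genes were lower and 4.39% higher. HOXB2 had a log2 change of -0.89 (SE 0.226, adjusted p = 0.0454), which comes from MDA-MB-435 alone, since it had 0 counts in MDA-MB-231. HOXB3 had -0.77 (SE 0.193, adjusted p = 0.0391), and its ratio was under 1 in both lines, 0.550 and 0.636. At an unadjusted p under 0.05 there were 9 members, and DESeq2 gave 1 at an adjusted p under 0.05.

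Most noncoding RNAs of the clusters that were detected were so in MDA-MB-435, and HAGLR in MDA-MB-231. HOTAIR, transcribed between HOXC11 and HOXC12, had 96 and 20 counts in MDA-MB-435 and 0 in both libraries of the other line. HOXB-AS1 had 127 and 42, HOXB-AS3 166 and 28, HOTAIRM1, from the anterior end of HOXA, 230 and 128, and HOXC13-AS 109 and 69 in MDA-MB-435, and at most 1 in each MDA-MB-231 library. HAGLR had its counts in MDA-MB-231, as above. Others that reached 1 TPM in a library had few counts, in MDA-MB-435 37 and 15 for HOXA-AS2, 27 and 12 for HOXC-AS2, 10 and 7 for HOXB-AS2, 9 and 3 for HOXC-AS1 and 0 and 1 for MIR196A2, and in MDA-MB-231 0 and 6 for HAGLROS. Of 23 such genes in the table, 10 were tested in MDA-MB-435 and 3 were called lower, where 6.52% of all genes tested were. HOXB-AS3 had a ratio of 0.217 (0.140 to 0.326, adjusted p = 3.24e-17), HOTAIR 0.269 (0.157 to 0.438, adjusted p = 1.32e-08) and HOXB-AS1 0.426 (0.293 to 0.609, adjusted p = 2.18e-06). The interval of HOXB-AS3 lies below that of each HOXB and HOXC mRNA with over 100 control counts, and of these mRNAs the interval of HOTAIR overlaps those of HOXB5 and HOXC11. The intervals of HOXB-AS3 and HOTAIR both overlap that of HOXB13 (0.275 to 0.669), which had 86 control counts. HOTAIRM1 had 0.718 (0.574 to 0.895) and HOXC13-AS 0.816 (0.595 to 1.11). An unnamed transcript within an intron of HOXB3, chr17:48579630-48582259 on the minus strand, had 43 and 10 counts in MDA-MB-435 (0.300, 0.134 to 0.606, adjusted p = 0.000731) and was found after its values were seen. In MDA-MB-231, HAGLR was the 1 gene of the list tested and had 466 and 427 counts.

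**Figure D5:**
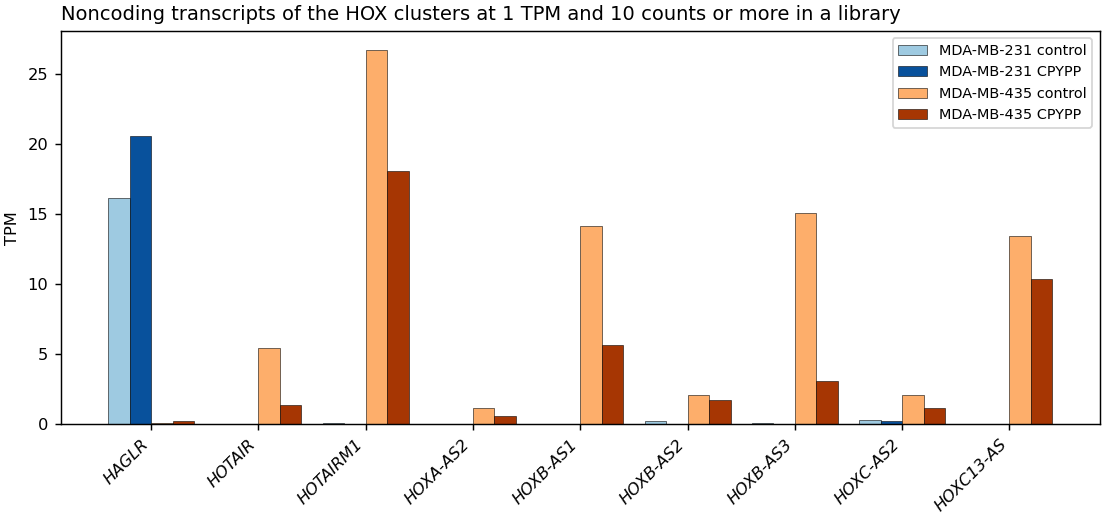
TPM of the noncoding genes of the HOX clusters that reached 1 TPM and 10 counts in a library, 1 bar per library. HAGLR has its tall bars in MDA-MB-231 and the others in MDA-MB-435, where HOTAIR, HOXB-AS1 and HOXB-AS3 are the 3 called lower after CPYPP.

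Few genes that act with or on HOX genes were called within a line. Over all genes tested, 6.52% were called lower and 3.17% higher in MDA-MB-435, and 3.09% and 4.22% in MDA-MB-231. Whether the lists below differ from these shares was not tested. Of 10 genes tested of TALE, the family of HOX cofactors, most differed between the lines by the quasi-likelihood test at an adjusted p under 0.05. In MDA-MB-435 3 were higher and in MDA-MB-231 5, where 30.5% and 32.4% of all genes were. MEIS3 had 672 and 462 counts in MDA-MB-435 against 18 and 25 in MDA-MB-231, and PBX4 33 and 23 against 216 and 140. The median log2 ratio of the TALE genes tested was -0.32 in MDA-MB-435 and -0.18 in MDA-MB-231. Of 26 Polycomb genes, 1 was called lower in MDA-MB-435, CBX2, a subunit that reads the silencing mark, with 777 and 286 counts (0.475, 0.413 to 0.544), and 0 in MDA-MB-231. Of 23 MLL and trithorax genes, KDM6B, an enzyme that removes the Polycomb mark, was called higher in both lines, with 427 and 677 counts in MDA-MB-435 (2.04) and 232 and 414 in MDA-MB-231 (2.44). Of 18 genes of retinoic acid signalling and CDX factors, which induce HOX genes in the embryo, RDH10, which makes retinal, was called higher in MDA-MB-231, with 217 and 379 counts (2.38), and had 379 and 301 (1.02) in MDA-MB-435. Of the retinoid receptors, RARA (783 and 359 counts, 0.591), RARB (213 and 84, 0.509), RARG (0.711) and RXRG (0.607) were lower in MDA-MB-435 at an adjusted p under 0.05, inside the fold limit. RXRA (1.22) and RXRB (1.15) were higher at that p. Over all genes tested, 23.2% were lower and 27.6% higher at that p with no minimum fold. Of 9 boundary and cohesin genes and 19 neighbours of the clusters, 0 were called in either line. Of the neighbours, 14 were tested in MDA-MB-435 and 15 in MDA-MB-231. Their median log2 ratio was 0.06 in MDA-MB-435, where that of the HOX genes was -0.66, and -0.08 in MDA-MB-231, where that of the HOX genes was -0.55. Over both lines, with the quasi-likelihood test at an adjusted p under 0.05, 7 of 23 MLL and trithorax genes were higher and 0 lower. Of 9 boundary and cohesin genes, 2 were higher and 1 lower. Of 26 Polycomb genes 0 were higher and 2 lower, and of 10 TALE genes 0 and 2. Of 10 retinoic acid and CDX genes tested, 0 passed. Of all genes, 4.39% were higher and 2.85% lower. Whether the lists differ from these shares was not tested either.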

How the data were processed

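Poly(A) RNA of the 4 libraries was quantified as raw read counts per gene, which the authors deposited without normalization, with positions and exon lengths. The submitters' processing notes name cutadapt 1.9.1, HISAT2 2.2.1, HTSeq 0.6.1 and DESeq2, with no role given, and GRCh37.p13, but 58159 of 58254 genes shared with GENCODE release 29 overlap its GRCh38 positions, all 39 HOX genes among them, and the table's positions were used as GRCh38. The growth and treatment texts name MDA-MB-435 for all samples, and lines were taken from the sample titles. Depths are given with the report.

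TPM was computed from counts and exon lengths over all genes. Within a line, genes with at least 10 counts in a library were tested with an exact binomial test on TMM effective library sizes (edgeR 4.0.16, R 4.3.3), two-sided, with Benjamini-Hochberg adjustment over all genes tested, and counts up to 3 were set to 3 for ratios. Ratio intervals are 95% Clopper-Pearson intervals. Effects over the 4 libraries used edgeR's quasi-likelihood test after filterByExpr, and DESeq2 1.42.0 as an alternative. The fit gave a coefficient of variation of 0.121, from 1 residual degree of freedom and without repeated cultures. Promoter sequences are from RefSeq. The procedure was tested on simulated data.

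All members were counted, though some genes are not reported here by name, and those at 1 TPM in a library, called, or past the test in an effect over the 4 libraries were given with values, besides at most 4 called genes of each other list and noncoding genes at 1 TPM or with a call. Members and lists were chosen with earlier results of these data known. Alternatives concerned normalization, filters, fold limits, assumed biological variation, the limit for a gene that is on, DESeq2 and the block. The protocol's other assays were not analysed here.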

Additional observations from a re-analysis of the deposited data

How the results depend on the processing

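In MDA-MB-435 the HOXB3, HOXB5, HOXB9, HOXB13, HOXC4, HOXC11 and HOXD4 ratios kept their direction with the other normalizations. Filters, fold limits and assumed variation do not enter a ratio, so they could not change its direction. HOXD4, at 0 in the CPYPP library, was not tested where 10 counts were required in both libraries. In MDA-MB-231 the log2 ratio of HOXB9, 0.06 and not past the test, became -0.01 with total counts. Calls depended on the fold limit and on the biological variation assumed. In MDA-MB-435 the 4 members called lower became 14 with no minimum fold, 12 at a fold over 1.5 and 7 with total counts as library sizes, but 1 at an assumed biological coefficient of variation of 0.2 and 0 at 0.4, and those called higher became 1 with no minimum fold or a fold over 1.5. In MDA-MB-231 those called lower became 2 with no minimum fold or over 1.5, and 0 at coefficients of 0.1, 0.2 or 0.4 or with at least 10 counts in both libraries, which removes HOXC4 and turns the median log2 ratio of the members to 0.13, and those called higher became 1 with no minimum fold or over 1.5. The number of members on in MDA-MB-231 was 10 at 0.5 TPM, 2 at 3 TPM and 2 at 1 FPKM, and in MDA-MB-435 14 at 1 FPKM. In MDA-MB-435 the summed ratio was 0.615 with total counts and 0.632 with upper quartile for all members, 0.585 and 0.601 for HOXB, and 0.696 and 0.714 for HOXC. Without HOXB9, added after seeing the data, HOXB was 0.604 in MDA-MB-435 and 0.561 in the other line. Members lower in the common effect were 4 with total counts, 5 with at least 1 count summed over the libraries, 1 with DESeq2 and 0 with no block for the line. Control and CPYPP were paired by line only, through the block, and with 1 library per condition no library was left out. Protein-coding genes alone were not run, since the table gives no gene type. In MDA-MB-231, 28 of 39 members were under 10 counts in both libraries and were not tested.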
